A study of Homo sapiens with 8 samples.

Results

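Expression was followed for 9 genes that are used as surface and stem cell markers of colorectal cancer: the cell surface proteins CD44, ALCAM, CD24, PROM1 and PROM2, the enzyme ALDH1A1, and the nuclear factors SOX9, CDX2 and BMI1. They were chosen by name, with earlier results of these data known, and all 9 were found among the 39533 genes of the count table. The libraries were made from HCT116, an established line of human colorectal cancer cells, in a self-seeding model, in which cells that have left a tumour come back to it. The labels give 3 groups and no treatment, genotype or time. Tumour self-seeded cells (TSC, n = 3) and primary tumour cells (PC, n = 3) were taken from the tumour, and circulating tumour cells (CTC, n = 2) from blood, and all are HCT116. The series title names liver cancer, and the host of the tumours is not given in any source used here. A single cell line limits the groups as a model, and nothing in the labels says that replicates came from separate animals or cultures, so a p-value here weighs a difference against a spread between libraries that may be technical.

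CD44 is a receptor for hyaluronan, a sugar polymer of the matrix, and is a target gene of Wnt signalling in the gut. PROM1, also called CD133, is a membrane protein of cell protrusions, and together with CD44 it is one of the classic surface antigens by which cells that start new colorectal tumours have been sorted. SOX9 marks the stem and progenitor cells at the base of intestinal crypts, CDX2 sets intestinal identity and is typical of differentiated epithelium, and BMI1 belongs to a Polycomb complex that keeps genes silent and sustains self-renewal.

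The promoters of both prominins and of CD24 are shown because PROM2 and CD24 were lower in CTC, whereas PROM1, the paralog of PROM2, did not pass the test. SOX9 was lower in CTC as well, but no promoter window was found for it. The promoters shown are RefSeq windows of GRCh38.p14 on the gene's strand, with 250 bases before and 50 after the transcription start. For PROM1 and CD24 the first of several listed starts was taken. The capitals mark the matches to motifs that were searched for, GGGCGG (the SP1 box) in PROM2 and CD24 and CCAAT in PROM1.
PROM2, chr2:95274199-95274498, plus strand: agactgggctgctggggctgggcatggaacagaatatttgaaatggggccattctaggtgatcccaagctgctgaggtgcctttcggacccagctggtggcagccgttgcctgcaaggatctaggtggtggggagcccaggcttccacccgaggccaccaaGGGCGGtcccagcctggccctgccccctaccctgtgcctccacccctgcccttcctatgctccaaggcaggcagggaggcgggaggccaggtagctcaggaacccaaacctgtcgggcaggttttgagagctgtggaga
CD24, chr6:106975578-106975877, minus strand: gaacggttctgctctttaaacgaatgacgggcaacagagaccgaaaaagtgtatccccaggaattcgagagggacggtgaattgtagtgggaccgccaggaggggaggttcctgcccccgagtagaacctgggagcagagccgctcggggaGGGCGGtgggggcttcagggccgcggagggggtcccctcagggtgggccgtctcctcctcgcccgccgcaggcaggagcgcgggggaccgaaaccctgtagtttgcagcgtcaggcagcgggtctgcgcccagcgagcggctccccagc
PROM1, chr4:16083974-16084273, minus strand: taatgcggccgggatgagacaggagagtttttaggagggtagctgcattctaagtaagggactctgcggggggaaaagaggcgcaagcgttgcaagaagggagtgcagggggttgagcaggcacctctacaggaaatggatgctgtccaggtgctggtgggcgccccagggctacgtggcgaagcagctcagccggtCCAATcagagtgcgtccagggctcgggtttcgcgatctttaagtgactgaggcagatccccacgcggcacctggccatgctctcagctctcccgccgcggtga
GGGCGG lies 89 bases before the start in PROM2 and 99 before it in CD24, and CCAAT lies 53 before it in PROM1. Searched on both strands, GGGCGG occurs in 44.6% of 27305 such human windows and CCAAT in 35.7%, so neither is particular to these genes. No match was found in these 3 windows for the other motifs searched. Of all windows, 12% hold the TATA box TATAAA and 7.76% the AP-1 motif TGANTCA. The TCF/LEF motif ATCAAAG occurs in 2.64%, the SOX motif ACAANGG in 12% and the CDX motif TTTATNG in 10.1%. The windows are 63.3% (PROM2), 66.7% (CD24) and 60.7% (PROM1) G or C, against a median of 58.3%. A match is a description of the letters and not a measured site.

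Depth set what could be seen of the rarer markers. Total counts were 4578869 to 14717833 in TSC, 957607 and 10524069 in CTC replicates 1 and 2, and 10864761 to 19264595 in PC. A count of 0, read with a floor of 3 counts, allowed up to 2.99 CPM (the count over the library's sum across tested genes, in units of 1000000 counts, scaled by TMM factors) in CTC replicate 1, up to 0.286 CPM in CTC replicate 2 and between 0.156 and 0.668 CPM in the other libraries; floors and intervals cover counting error alone. The epithelial markers EPCAM, KRT8, KRT18, KRT19, CDH1 and CLDN4 were present in all groups, summing with CLDN7, listed at 0, to 8066 to 9297 CPM in TSC, 5170 and 7686 CPM in CTC and 6005 to 8090 CPM in PC. The 19 leukocyte markers summed to 28.0 to 52.4 CPM in TSC, 194 and 487 CPM in CTC and 15.5 to 23.9 CPM in PC, with 10, 4 and 8 of them at 0 throughout TSC, CTC and PC. The 11 erythroid markers summed to 81.3 to 94.6 CPM in TSC, 248 and 331 CPM in CTC and 52.9 to 64.8 CPM in PC, with 7, 5 and 5 at 0 throughout. HBB among them was at 164 and 209 CPM in CTC, but at most 0.494 CPM in TSC and 0.754 CPM in PC. The sums of TSC and PC thus came almost wholly from other genes of the list. PTPRC, which encodes CD45 of all white blood cells, gave 0, 0 and 0.452 CPM in TSC, 31.9 and 7.63 CPM in CTC and 0.503, 0 and 0 CPM in PC. Platelet, endothelial and hepatocyte markers each summed to at most 3.99 CPM in any library, and fibroblast markers to 13.4 to 120 CPM in TSC, 12.4 and 29.9 CPM in CTC and 38.7 to 76.9 CPM in PC. Both CTC libraries thus held more transcript of blood cell genes than any library of TSC or PC, and the part of this in the CTC results was not tested.

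All 9 markers passed the filter on low counts, along with 14255 genes in all, but their abundance differed widely. Divided by the length of the longest transcript and averaged over the 8 libraries, CD44 stood at 357 CPM per kb (260 to 472), SOX9 at 61.1 (19.8 to 127) and ALCAM at 28.9 (22.7 to 33.7). CD24 followed at 9.07 CPM per kb (1.90 to 13.4), PROM1 at 8.48 (5.28 to 9.63), CDX2 at 6.53 (3.20 to 8.35), PROM2 at 2.24 (0.422 to 3.84), BMI1 at 0.400 (0 to 0.715) and ALDH1A1 at 0.138 (0 to 0.634). CD44 lay above every other marker in every library. ALCAM was likewise above CD24, CDX2 above PROM2 and PROM2 above BMI1 in 8 of 8 libraries, though the ranges of CDX2 and PROM2 and those of PROM2 and BMI1 overlapped between libraries. The other neighbours changed places in some libraries: SOX9 was above ALCAM in 6 of 8, CD24 above PROM1 in 6 of 8, PROM1 above CDX2 in 7 of 8 and BMI1 above ALDH1A1 in 6 of 8. The order within these pairs was not tested, and the spread over the 8 libraries includes differences between groups. BMI1 was below ALDH1A1 in the 2 CTC libraries alone, with 0 and 1 counts of the 2 genes in CTC replicate 1. SOX9 was below ALCAM in TSC replicate 1 and CTC replicate 2, and above it in every PC library. Among the markers with over 10 counts in every library, SOX9 and CD24 had the widest spread.

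**Figure D1:**
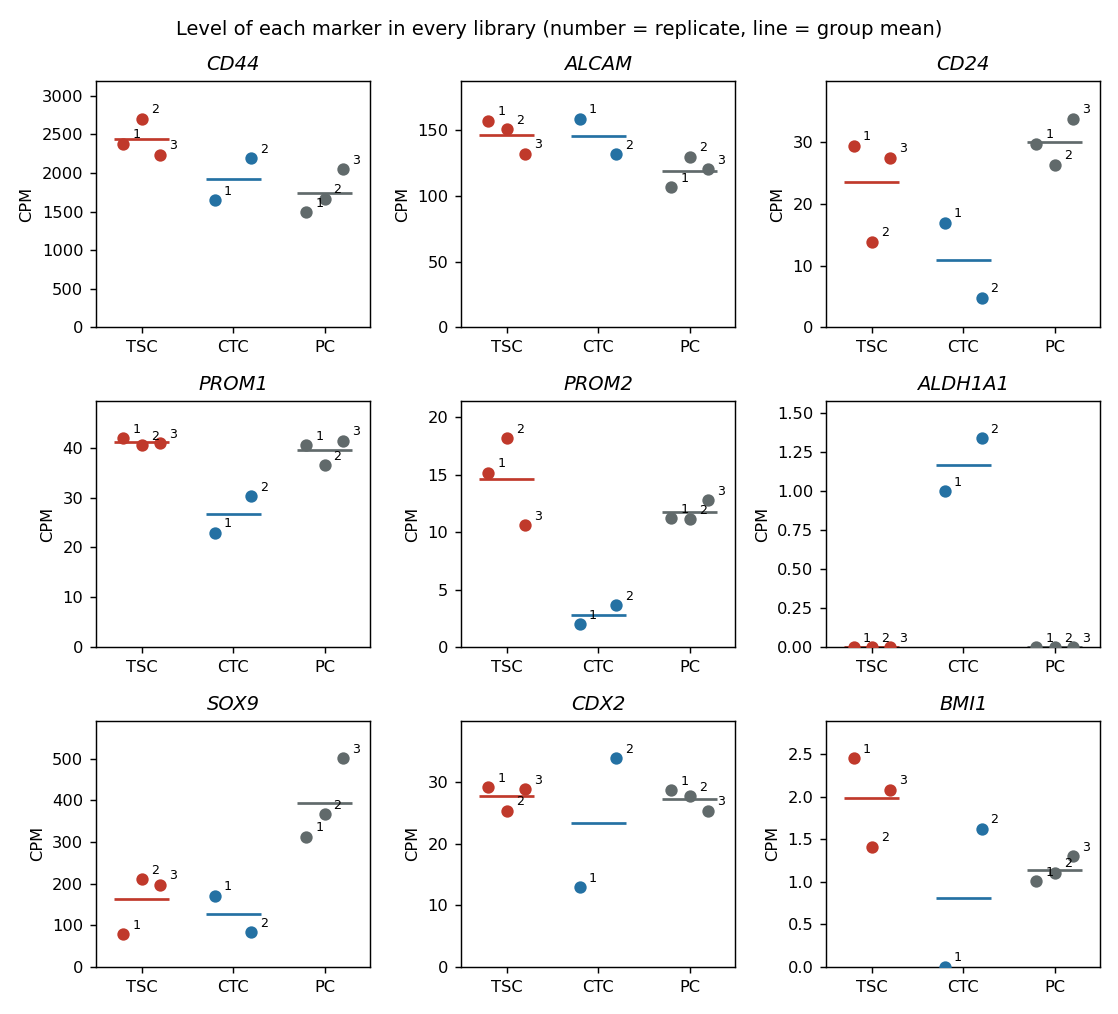
Level of each of the 9 markers in CPM (vertical axes, from 0) in every library of TSC, CTC and PC, with points numbered by replicate and a line at the group mean. SOX9 sits between 312 and 501 CPM in the 3 PC libraries, above all TSC and CTC libraries, and ALDH1A1 has counts in the CTC libraries alone.

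The comparison of TSC with PC asks whether cells that returned to the tumour carry a different set of stem cell markers than cells of the primary tumour. None of the 9 markers passed an adjusted p of 0.05 in TSC against PC (0 of 9, against 0.505% of all 14255 genes, by the quasi-likelihood test of edgeR, with p adjusted by the Benjamini-Hochberg method over all genes). DESeq2 also called 0 of 9, against 1.34% of all genes. It gave no adjusted p for ALDH1A1 in any comparison, so that marker could not be called by it. By edgeR, 2 of 9, SOX9 and CD44, had an unadjusted p under 0.05, against 10.3% of all genes. The TSC and PC libraries did not overlap for 4 of 9 markers, against 18.9% of all genes, with CD44, ALCAM and BMI1 higher in TSC and SOX9 lower. The median log2 fold change of the 8 markers with counts in either group was 0.18, against 0.006 over all genes.

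CD44 (chromosome 11, 35139171 to 35232402, RefSeq, GRCh38, as for the other genes) reached 2377, 2703 and 2235 CPM in TSC replicates 1 to 3, 1647 and 2191 CPM in CTC and 1493, 1663 and 2046 CPM in PC. Every TSC library lay above every CTC and PC library, and the CTC libraries lay within the range of PC or above it. The log2 fold change of TSC against PC was 0.49 ± 0.16 (SE, n = 3 and 3), with an unadjusted p of 0.0078 and an adjusted p of 0.282, so it did not pass. TSC against CTC gave 0.34 ± 0.18 (adjusted p = 0.355) and CTC against PC 0.15 ± 0.18 (adjusted p = 0.650). The counts do not separate the splice forms of CD44, the standard and the variant receptors.

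ALCAM, or CD166, an immunoglobulin-like protein through which neighbouring cells adhere (chromosome 3, 105366909 to 105576900), gave 157, 150 and 132 CPM in TSC, 159 and 131 CPM in CTC and 107, 130 and 120 CPM in PC. The lowest library of TSC and that of CTC were just above the highest of PC, and the TSC and CTC ranges overlapped. TSC against PC gave a log2 fold change of 0.30 ± 0.16 (95% confidence interval −0.05 to 0.65, adjusted p = 0.562) and CTC against PC one of 0.28 ± 0.19 (adjusted p = 0.393). Neither passed the test, and TSC against CTC was at 0.03 ± 0.19 (−0.38 to 0.43, adjusted p = 0.968).

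SOX9 (chromosome 17, 72121020 to 72126416) was the marker with the largest difference in the tumour and the only one of the 9 for which both TSC and CTC lay wholly below PC with an unadjusted p under 0.05. It stood at 78.0, 211 and 197 CPM in TSC, 172 and 83.2 CPM in CTC and 312, 367 and 501 CPM in PC. The 5 TSC and CTC libraries were all below the lowest PC library, and TSC replicate 1 and CTC replicate 2 were the lowest. SOX9 was 2.42-fold lower in TSC than in PC (log2 fold change −1.27 ± 0.33 SE, 95% confidence interval −1.97 to −0.57), with an adjusted p of 0.135 that did not pass. Without a filter on low counts the same comparison had an adjusted p of 2.55e-09 and passed. The log2 fold change was almost the same there (−1.30), but the SE was 0.19 against 0.33. That fit gave the gene's own spread between libraries almost no weight, so its pass is weak support. Over the other alternatives SOX9 did not pass in TSC against PC, and the adjusted p reached 0.490. In CTC, SOX9 was 3.20-fold lower than in PC (−1.68 ± 0.40, n = 2 and 3, adjusted p = 0.0319), which passed. The antisense transcript SOX9-AS1 shares no exonic base with SOX9 in GENCODE 29 and had 0, 1 and 12 counts in TSC, 0 and 3 in CTC and 10, 14 and 36 in PC.

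CDX2 (chromosome 13, 27960918 to 27969315) was almost level in the tumour, at 29.2, 25.3 and 28.8 CPM in TSC, 13.0 and 33.9 CPM in CTC and 28.6, 27.7 and 25.3 CPM in PC. The TSC and PC libraries lay within the same narrow band, and the CTC libraries fell on either side of it. The low value of CTC replicate 1 rested on 13 counts (95% exact Poisson interval 6.90 to 22.2 CPM). The log2 fold change of TSC against PC was 0.03 ± 0.25 (95% confidence interval −0.51 to 0.56, adjusted p = 0.985), that of CTC against PC −0.05 ± 0.30 (−0.69 to 0.58, adjusted p = 0.930) and that of TSC against CTC 0.08 ± 0.30 (adjusted p = 0.925). CDX1, its close relative, was listed at 0 in all libraries.

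BMI1 (chromosome 10, 22321099 to 22331706) was scarce, with 11, 20 and 23 counts in TSC, 0 and 17 in CTC and 12, 12 and 25 in PC. These correspond to 2.45, 1.41 and 2.08 CPM in TSC, 0 and 1.62 CPM in CTC and 1.01, 1.10 and 1.30 CPM in PC. The TSC libraries were above the PC libraries without overlap, but the exact Poisson intervals of single libraries overlapped (0.862 to 2.18 CPM for TSC replicate 2 and 0.840 to 1.92 CPM for PC replicate 3). The log2 fold change of TSC against PC was 0.77 ± 0.77 (adjusted p = 0.777), that of CTC against PC 0.05 ± 0.90 (adjusted p = 0.977) and that of TSC against CTC 0.72 ± 0.95 (adjusted p = 0.752). No difference in BMI1 was detectable at this depth. In GENCODE 29, 23.3% of its exonic bases are shared with the readthrough gene COMMD3-BMI1, which is listed at 0 in all libraries, so the counting of reads in the shared part is uncertain.

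CTC were next set against PC, cells in blood against cells of the primary tumour. PROM2, CD24 and SOX9 fell in CTC, by 3.57-fold, 3.80-fold and 3.20-fold, and 0 of 9 markers rose by the test. The 3 of 9 called compare with 3.92% of all genes called, and with 2.52% called lower, and DESeq2 called 3 of 9 as well, against 7.89% of all genes. Leaving out ALDH1A1, which passed the filter through its CTC counts alone, CTC and PC libraries did not overlap for 5 of 8 markers, against 44.6% of all genes, with PROM1, PROM2, CD24 and SOX9 lower in CTC and ALCAM higher. The median log2 fold change of the 9 markers was −0.05 (also with ALDH1A1 at its lower bound) and that of all genes −0.04. Fewer tumour cells and less RNA of a gene per cell cannot be told apart in such bulk samples, and the raised blood cell markers above belong to the same CTC libraries.

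PROM2, the paralog of PROM1 that is found in epithelial membrane protrusions (chromosome 2, 95274449 to 95291302), gave 15.2, 18.1 and 10.6 CPM in TSC, 1.99 and 3.62 CPM in CTC and 11.2, 11.1 and 12.8 CPM in PC. Both CTC libraries were below every tumour library, whereas TSC and PC overlapped. The CTC values rested on 2 and 38 counts, with exact Poisson intervals of 0.242 to 7.21 CPM and 2.56 to 4.97 CPM, which end below the lowest interval of the PC libraries (from 9.24 CPM). The log2 fold change was −1.84 ± 0.41 for CTC against PC (n = 2 and 3, adjusted p = 0.0251) and 2.15 ± 0.41 for TSC against CTC (4.45-fold higher, n = 3 and 2, adjusted p = 0.0267). TSC against PC was at 0.32 ± 0.29 (95% confidence interval −0.30 to 0.93, adjusted p = 0.751).

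CD24, a small glycoprotein anchored in the membrane by a lipid and a ligand of P-selectin and Siglec-10 (chromosome 6, 106969831 to 106976855), gave 29.4, 13.8 and 27.5 CPM in TSC, 17.0 and 4.77 CPM in CTC and 29.7, 26.3 and 33.8 CPM in PC. Both CTC libraries were below all PC libraries, but CTC replicate 1 lay above TSC replicate 2, so TSC and CTC overlapped. The CTC libraries also differed from each other, with 17 and 50 counts and exact Poisson intervals of 9.88 to 27.2 CPM and 3.54 to 6.29 CPM that do not meet. CTC against PC gave a log2 fold change of −1.93 ± 0.49 (n = 2 and 3, adjusted p = 0.0417), which passed. TSC against CTC gave 1.56 ± 0.49 (adjusted p = 0.139) and TSC against PC −0.36 ± 0.34 (95% confidence interval −1.09 to 0.36, adjusted p = 0.761), which did not. TSC replicate 2 held less CD24 than the other TSC libraries. Of the 75-base windows of the CD24 transcript, 2.75% also occur in the pseudogene CD24P4, so a small part of its reads is uncertain.

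PROM1 (chromosome 4, 15968228 to 16084023) was steady in the tumour, at 41.9, 40.5 and 40.9 CPM in TSC, 22.9 and 30.3 CPM in CTC and 40.5, 36.5 and 41.4 CPM in PC. Both CTC libraries were below all tumour libraries, and TSC and PC overlapped. CTC against PC gave a log2 fold change of −0.51 ± 0.22 (95% confidence interval −0.98 to −0.04, adjusted p = 0.175) and TSC against CTC one of 0.57 ± 0.22 (adjusted p = 0.218), and neither passed. TSC against PC was at 0.06 ± 0.18 (−0.33 to 0.44, adjusted p = 0.944).

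ALDH1A1, a cytosolic enzyme that oxidises retinaldehyde to retinoic acid and whose activity is assayed to sort stem-like cells (chromosome 9, 72900671 to 72953053), was listed at 0 in every tumour library. It had 0, 0 and 0 counts in TSC, 1 and 14 counts in CTC and 0, 0 and 0 counts in PC. All 15 counts were therefore in CTC, and 14 of them in CTC replicate 2. Pooled over the group, CTC held 1.31 CPM. Taken as exact, this value was at least 18.3-fold higher than PC (floor 0.0713 CPM, 3 counts over the group) and at least 12.9-fold higher than TSC (floor 0.101 CPM). These folds leave out the counting error of CTC, where the exact Poisson intervals were 0.0253 to 5.56 CPM in replicate 1 and 0.730 to 2.24 CPM in replicate 2. The adjusted p was 0.0858 for CTC against PC and 0.176 for TSC against CTC, so neither passed. The gene passed the filter on low counts through CTC alone, which fixed this direction. HBB, a haemoglobin gene, was at 164 and 209 CPM in the same CTC libraries against at most 0.494 CPM in TSC and 0.754 CPM in PC, and its part in this result was not tested.

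**Figure D2:**
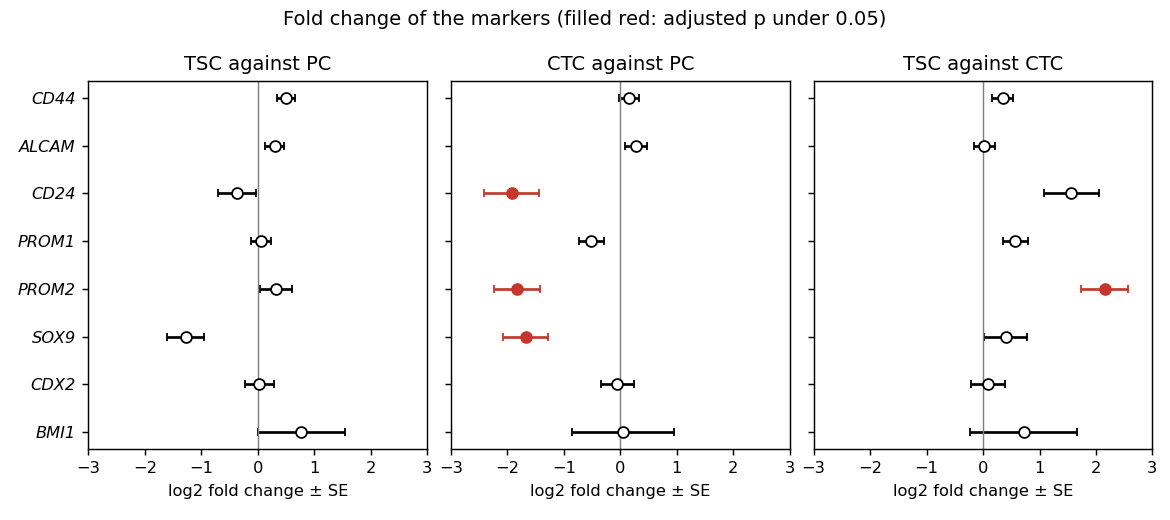
Log2 fold changes with their SE (horizontal axes) of 8 markers in TSC against PC, CTC against PC and TSC against CTC, with filled red points for an adjusted p under 0.05. ALDH1A1 is not drawn because its fold is a bound. PROM2, CD24 and SOX9 are filled in CTC against PC, at −1.84, −1.93 and −1.68, and PROM2 alone in TSC against CTC, at 2.15.

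The 3 calls of CTC against PC rested on few libraries. With each library left out in turn, PROM2 kept an adjusted p under 0.05 in 4 of 8 fits, and CD24 and SOX9 in 3 of 8. Without CTC replicate 2 all 3 were lost, with an adjusted p of 0.214 for PROM2, 0.487 for CD24 and 0.312 for SOX9, and the log2 fold change was −0.83 for CD24 and −2.56 for PROM2. All 3 were also lost without PC replicate 1 (adjusted p 0.0572 to 0.103), PC replicate 2 (0.0650 to 0.0863) or PC replicate 3 (0.0853 to 0.130), and CD24 and SOX9 without TSC replicate 3 (0.0752 and 0.0583). Without CTC replicate 1 all 3 passed, with log2 fold changes of −1.70 for PROM2, −2.65 for CD24 and −2.25 for SOX9. All of these values were negative. Leaving out a CTC library leaves 1, whose spread is then taken to be like that of the other groups.

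**Figure D3:**
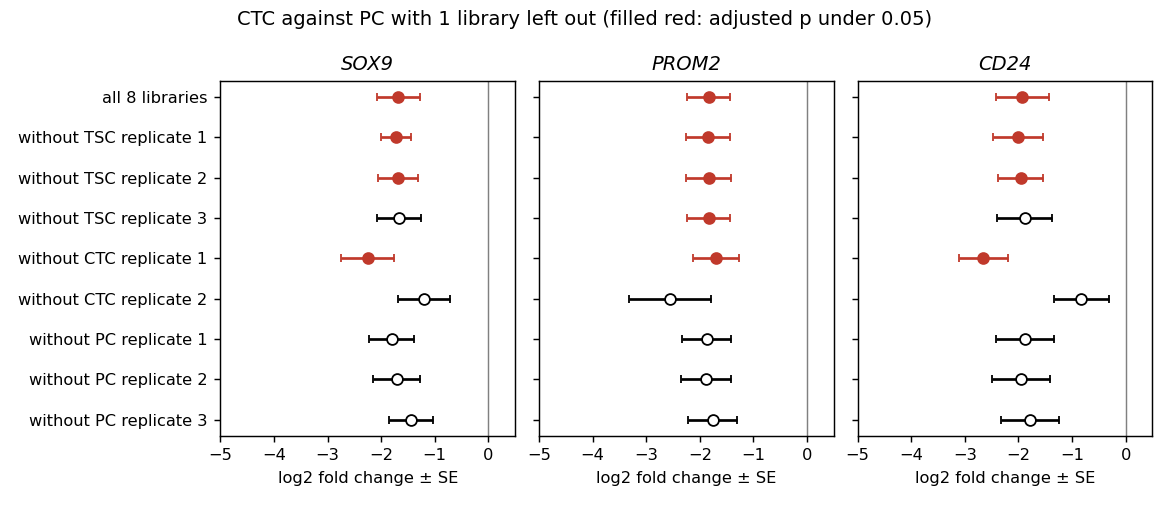
Log2 fold change with its SE (horizontal axes) of SOX9, PROM2 and CD24 in CTC against PC, with all 8 libraries (top) and with each library left out in turn; filled red points have an adjusted p under 0.05. Every point lies below 0, and without CTC replicate 2 CD24 is at −0.83 and PROM2 at −2.56, both open.

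The comparison of TSC with CTC sets the cells that returned to the tumour against those in blood, and it shares its TSC and CTC libraries with the other comparisons. PROM2 was the 1 marker of 9 that was called, higher in TSC, against 0.898% of all genes called and 0.372% called higher, and DESeq2 called 1 of 9, against 2.74% of all genes. Leaving out ALDH1A1 again, the groups did not overlap for 3 of 8 markers, against 28.4% of all genes, with CD44, PROM1 and PROM2 higher in TSC. The call of PROM2 was lost without TSC replicate 2 (adjusted p = 0.0646), CTC replicate 2 (log2 fold change 2.87, adjusted p = 0.149), PC replicate 1 (0.0518) or PC replicate 2 (0.0520). CD24 passed here without CTC replicate 1 (log2 fold change 2.28, adjusted p = 0.0384) and without a filter on low counts (adjusted p = 0.00213), with an adjusted p of up to 0.717 over its alternatives. SOX9 was at 0.41 ± 0.38 (95% confidence interval −0.41 to 1.22, adjusted p = 0.629).

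Ratios of counts between markers of 1 library are free of scaling between libraries. Sorting schemes for tumour cells have set CD44 against CD24, and the log2 ratio of CD44 to CD24 counts was 6.34, 7.61 and 6.35 in TSC, 6.60 and 8.84 in CTC and 5.65, 5.98 and 5.92 in PC. All TSC and CTC libraries were above all PC libraries, and TSC replicate 2 and CTC replicate 2 were the highest. The CD44 to CD24 ratio of CTC replicate 1 rests on 17 counts of CD24 (exact Poisson interval 9.88 to 27.2 CPM), so its place above PC is uncertain. The means were 6.76 ± 0.73 in TSC (SD, n = 3), 7.72 ± 1.59 in CTC (n = 2) and 5.85 ± 0.18 in PC (n = 3). The log2 ratio of PROM1 to PROM2 was 1.47, 1.16 and 1.95 in TSC, 3.52 and 3.06 in CTC and 1.85, 1.71 and 1.70 in PC. The CTC libraries were above all tumour libraries, where TSC and PC overlapped, with means of 1.53 ± 0.40 in TSC and 1.75 ± 0.09 in PC. The ratio of CTC replicate 1 rests on 23 counts of PROM1 and 2 of PROM2, and with PROM2 at the upper limit of its Poisson interval it would be 1.67, at the level of PC, so the exact value is uncertain. These ratios are descriptions, with no test.

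**Figure D4:**
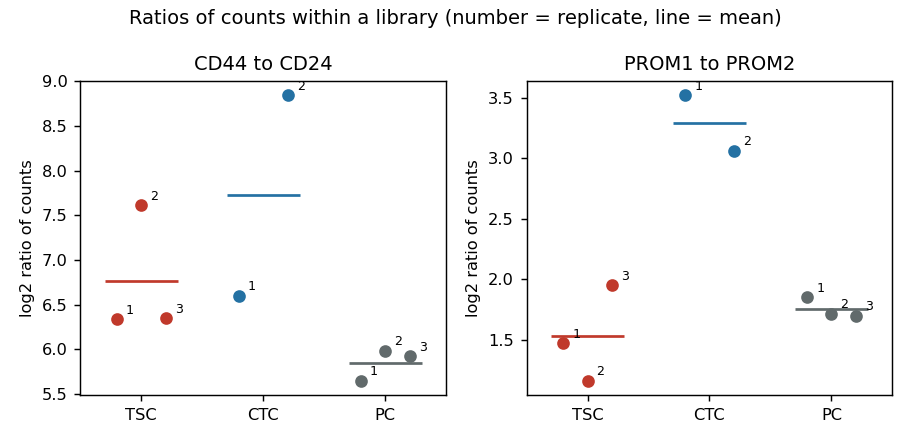
Log2 ratio of counts (vertical axes, not starting at 0) of CD44 to CD24 and of PROM1 to PROM2 in each library of TSC, CTC and PC, numbered by replicate, with a line at the group mean. PC libraries lie between 5.65 and 5.98 for CD44 to CD24, below all others, and the CTC libraries at 3.06 and 3.52 for PROM1 to PROM2, above all others.

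Genes that work with these markers were counted in 8 lists, holding 102 distinct tested genes besides the markers. In TSC against PC, 0 of the 102 were called by edgeR, against 0.505% of all genes. There, 24 had an unadjusted p under 0.05, against 10.3% of all genes, and DESeq2 called 4, against 1.34%. In CTC against PC, 7 of 102 fell, against 2.52% of all genes, and 0 rose. There, 32 had an unadjusted p under 0.05, against 23.6% of all genes, and DESeq2 called 13, against 7.89%. In TSC against CTC, 1 of 102 was higher, against 0.372% of all genes, and 0 were lower, with 17 at an unadjusted p under 0.05, against 16.7%, and 4 called by DESeq2, against 2.74%.

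Among the relatives of ALCAM, the immunoglobulin-like adhesion molecules, 4 of 14 tested genes fell in CTC against PC, against 2.52% of all genes. The median log2 fold change of the 14 was −0.96 (also with NCAM1, without counts in CTC, at its bound), against −0.04 over all genes. CADM4, a synaptic cell adhesion molecule, had 20.5, 25.9 and 30.4 CPM in TSC, 3.99 and 10.8 CPM in CTC and 32.0, 39.5 and 42.2 CPM in PC. Both CTC libraries were below all others, and CADM4 passed in all 13 alternatives (−2.07 ± 0.33, adjusted p = 0.00523), with a log2 fold change of −3.25 without CTC replicate 2. L1CAM, a neural adhesion molecule found at invasive edges of colorectal tumours, fell in CTC (−2.06 ± 0.44, adjusted p = 0.0215), as did the laminin receptor BCAM (−1.88 ± 0.42, adjusted p = 0.0256) and NECTIN1, a protein of adherens junctions (−1.23 ± 0.31, adjusted p = 0.0409). L1CAM was lost without CTC replicate 1 (adjusted p = 0.0544), CTC replicate 2 (−3.31, adjusted p = 0.153) or PC replicate 3 (0.0723). BCAM and NECTIN1 were lost without TSC replicate 3, CTC replicate 2 or any PC library (BCAM 0.0521 to 0.321, NECTIN1 0.0741 to 0.277), and NECTIN1 also without CTC replicate 1 (0.0901). CADM4 was also higher in TSC than in CTC (1.52 ± 0.33, adjusted p = 0.0460), but this was lost when any library other than TSC replicate 1 was left out (0.0698 to 0.192; log2 fold change 2.69 without CTC replicate 2) and with only the libraries of TSC and CTC in the fit (0.140).

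Among 10 tested genes of crypt stem cells, 1 fell in CTC against PC, a share of 10%, against 2.52% of all genes. This was RNF43, a Wnt target that removes Frizzled receptors from the membrane. It had 20.3, 26.0 and 25.7 CPM in TSC, 17.0 and 5.05 CPM in CTC and 39.9, 51.7 and 58.1 CPM in PC, a 6.28-fold difference of CTC against PC (−2.65 ± 0.42, adjusted p = 0.00437) that passed in 12 of 13 alternatives and was lost without CTC replicate 2 (log2 fold change −1.57, adjusted p = 0.162). Without CTC replicate 1 the log2 fold change was −3.31. The TSC and CTC libraries were all below the PC libraries, but TSC against PC did not pass (−1.05 ± 0.28, adjusted p = 0.157). It passed without CTC replicate 1 or CTC replicate 2 (0.0274 each), with only the libraries of TSC and PC in the fit (0.0280) and without a filter on low counts (0.00112), within a range of up to 0.545 over the alternatives. The median over the 10 genes was −0.33 in TSC against PC, −0.71 in CTC against PC and 0.58 in TSC against CTC. The medians over all genes were 0.006, −0.04 and 0.06 in the same order. LGR6, ASCL2, OLFM4 and SMOC2 were listed at 0 in all libraries.

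Around CD44, 1 of 17 tested genes of hyaluronan metabolism and CD44 partners fell in CTC, a share of 5.88%, against 2.52% of all genes. CEMIP, a hyaluronan-degrading protein, had 7.35, 21.5 and 14.0 CPM in TSC, 10.97 and 0.668 CPM in CTC and 20.6, 33.6 and 53.3 CPM in PC. The CTC libraries differed widely from each other, TSC overlapped both CTC and PC, and the fall (−3.95 ± 0.88, adjusted p = 0.0256) passed in 7 of 13 alternatives. It was lost by DESeq2 (log2 fold change −2.75, adjusted p = 0.101), without TSC replicate 3 (0.0545), CTC replicate 2 (−1.72, adjusted p = 0.357), PC replicate 2 (0.0627) or PC replicate 3 (0.0894), and without CTC replicate 1 it was at −5.73. The median of this list was −0.05 in TSC against PC and 0.34 in CTC against PC. Beside BMI1, 1 of 20 tested Polycomb genes fell in CTC, PHC2, a subunit of the same complex (−1.23 ± 0.25, adjusted p = 0.0179), a share of 5%, against the same 2.52%. It was lost without CTC replicate 1 (0.0567), CTC replicate 2 (0.162) or PC replicate 3 (0.0723). The list's medians were 0.003 in TSC against PC and −0.18 in CTC against PC. For both lists, the medians over all genes to set beside these are 0.006 and −0.04.

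The other lists held no call in any comparison. Of 6 tested SOX factors, SOX4 came nearest, with a log2 fold change of −1.58 ± 0.42 in CTC against PC (adjusted p = 0.0504). In this comparison and in TSC against PC, 2 of the 6 had an unadjusted p under 0.05 and DESeq2 called 0. Of 14 further stem cell markers, KLF4 was at −1.11 ± 0.31 in CTC against PC (adjusted p = 0.0559) and CD9 at 0.99 ± 0.22 in TSC against PC (adjusted p = 0.0739). In each of these comparisons 3 had an unadjusted p under 0.05, and DESeq2 called 2 in CTC against PC and 1 in TSC against PC. Of 14 aldehyde dehydrogenases, ALDH1A3 was at 1.11 ± 0.29 in TSC against PC (adjusted p = 0.138) and ALDH5A1 at −1.27 ± 0.37 in CTC against PC (adjusted p = 0.0664), with 3 at an unadjusted p under 0.05 and 1 called by DESeq2 in each. Of 7 intestinal factors and differentiation genes, CA2 was at 0.99 ± 0.30 in TSC against PC (adjusted p = 0.233) and 1.10 ± 0.35 in CTC against PC (adjusted p = 0.0805), the 1 gene with an unadjusted p under 0.05 in each, and DESeq2 called 0 in both. In TSC against CTC, DESeq2 called 0 genes of these lists as well, and at most 1 gene of a list had an unadjusted p under 0.05. Over all genes, 10.3% had such a p in TSC against PC, 23.6% in CTC against PC and 16.7% in TSC against CTC. DESeq2 called 1.34%, 7.89% and 2.74% of all genes in the same order. In CTC against PC, 3 of 14 and 1 of 7 did not exceed the share of 23.6%, and 2 of 6 did.

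**Figure D5:**
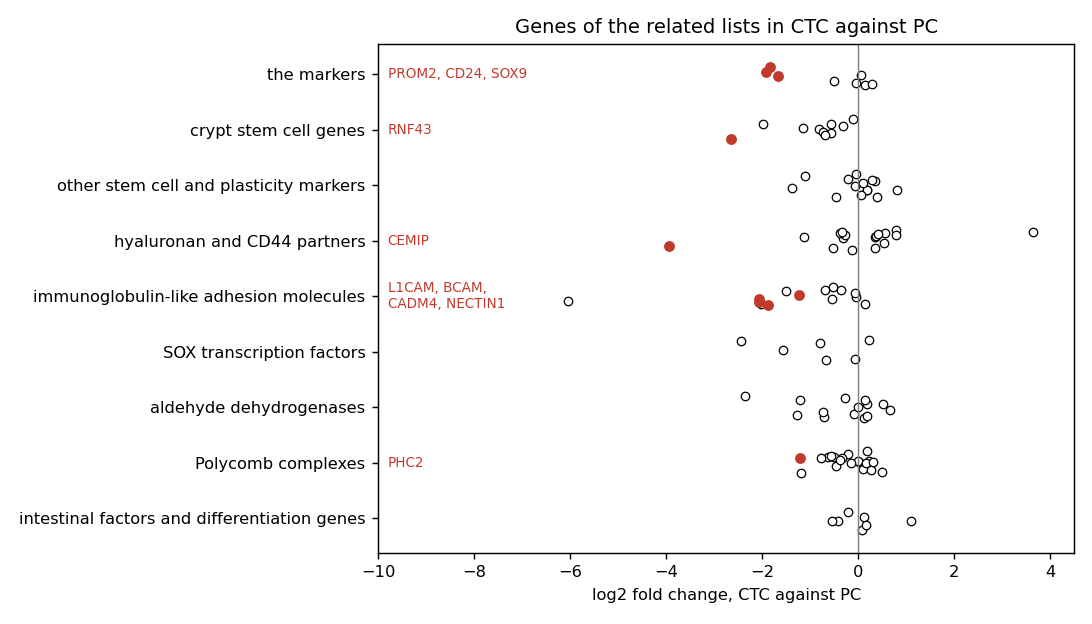
Log2 fold change in CTC against PC (horizontal axis) of 8 markers (ALDH1A1 is not drawn) and of every tested gene of the 8 related lists, 1 row per list with random vertical jitter; red points, named at the left, have an adjusted p under 0.05. All red points lie below 0, 4 of them among the immunoglobulin-like adhesion molecules.

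The genes whose pattern over the 8 libraries was nearest to that of a called marker were ranked by the root mean square difference in centred log2 CPM, among 9310 protein-coding genes whose log2 CPM averaged at least 3. For PROM2 these were KLK10 (0.24), DLX4 (0.30) and TMEM98 (0.30), with PROM2 itself varying by 0.99 around its mean. For CD24 they were CSRP2 (0.25), SERPINB5 (0.27) and NECTIN4 (0.29), with CD24 varying by 0.86. For SOX9 they were ARSD (0.18), DDIT4 (0.18) and ANGPTL4 (0.21), with SOX9 varying by 0.90. This is a description, in which every gene is measured in the same 8 libraries and shares their depth and scaling.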

How the data were processed

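Total RNA of each library was depleted of ribosomal RNA before sequencing, per the labels' protocols, so transcripts without a poly(A) tail are counted too. The authors deposited raw counts per gene, whole numbers with no normalization, in 1 table of 39533 genes whose 8 columns match the sample titles. Per the submitters' processing notes, STAR 2.5.3a, featureCounts 1.5.3 and the genome build hg38 were used. The annotation, the strand setting, the handling of reads with several positions and any removal of host reads are not given in any source used here. Of all genes, 16547 were at 0 in every library.

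The test of the counts was that of edgeR 4.0.16 (R 4.3.3) with quasi-likelihood: filterByExpr by group at a minimum count of 10, TMM scaling, then glmQLFit and glmQLFTest. The model had the group as its factor and all 8 libraries, because CTC has only 2 and borrows the spread of the rest. Calls were made where p, adjusted by Benjamini-Hochberg over the 14255 tested genes of a comparison, was under 0.05. Adjusted p-values come from edgeR except where DESeq2 is named. The SE is the log2 fold change divided by the square root of its F statistic. CPM is the count divided by the TMM-scaled sum over tested genes. Means are given ± SD. Intervals of single counts are 95% exact Poisson intervals. A fold against a group without counts is a bound with 3 counts over the group, and it takes the value of the other group as exact. Transcript lengths, exon overlaps and shared 75-base windows are from GENCODE 29, and coordinates (1-based) and promoters from RefSeq, in which 8 of the 9 markers had a promoter window.

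The alternatives were normalization by DESeq2's size factors, testing without a filter on low counts, the Wald test of DESeq2 1.42.0, the replicate number as a block, only the 2 groups compared, and each library left out in turn. No library pair agreed within sampling noise (0 pairs). Genes of the related lists are named if called, up to 4 per list by adjusted p, and in lists with no call the gene with the smallest p of a comparison may be named. The markers, lists and alternatives were chosen with earlier results of these data known. SOX9-AS1, CDX1, CD24P4, COMMD3-BMI1, NCAM1 and HBB were added after their values were seen.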

Additional observations from a re-analysis of the deposited data

Results flagged for a closer look

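PROM2 had unequal effects in the cells that returned to the tumour and in those in blood. The log2 fold change against PC was 0.32 ± 0.29 in TSC and −1.84 ± 0.41 in CTC. Their difference, which is the same as TSC against CTC because both are set against the same PC libraries, was 2.15 ± 0.41 (adjusted p = 0.0267 in the fit of edgeR). TSC had 10.6 to 18.1 CPM and CTC 1.99 and 3.62 CPM, so both CTC libraries lay below all 3 TSC libraries. The adjusted p of the difference lay between 0.000636 and 0.149 over 13 alternatives, of which 7 passed. The leukocyte and erythroid markers were higher in the same CTC libraries, and their part in the difference was not tested.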

How the results depend on the processing

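No marker changed direction in a comparison that passed under either setting. The number of markers called in TSC against PC was 0, and 1 without a filter on low counts (SOX9). In CTC against PC it was 3, and 0 to 3 with 1 library left out. In TSC against CTC it was 1, 2 without the filter, 0 with only the 2 groups, and 0 to 2 with 1 library left out. Over all genes, TSC against PC gave 72 calls, 355 without the filter, 191 by DESeq2, 128 with only the 2 groups and 10 to 153 with 1 library left out. CTC against PC gave 559, then 1535, 1125, 1409 and 35 to 1575 in the same order. TSC against CTC gave 128, then 728, 390, 82 and 36 to 696. ALDH1A1 passed in CTC against PC with only the 2 groups (adjusted p = 0.0482), within a range of 0.0482 to 0.287 over its 11 alternatives. It entered the filtered fits through its CTC counts alone, which fixed its direction, so this pass is no support for a difference. The cause of the changes between settings was not tested. The fits without the filter add genes, and those without a library have fewer samples.

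Same-numbered libraries did not deviate together (correlations of −0.134 to 0.0943 with PC and of −0.0536 and −0.0236 between TSC and CTC, computed over tested genes). The deviations were taken from group means, so those of the 2 CTC libraries mirror each other. These correlations cannot decide whether the numbers pair the samples. With the replicate number as a block, 67, 261 and 61 genes were called in TSC against PC, CTC against PC and TSC against CTC. PROM2 in TSC against CTC then had an adjusted p of 0.0504 (0 markers called) and SOX9 in CTC against PC one of 0.0748. CEMIP (0.0571) and NECTIN1 (0.0662) in CTC against PC and CADM4 (0.0751) in TSC against CTC were lost too.

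The 957607 counts of CTC replicate 1 limit PROM2, CD24, CDX2, BMI1 and ALDH1A1, which had 2, 17, 13, 0 and 1 counts there. With 2 CTC libraries, a single one can set a call. BMI1 and ALDH1A1 were too rare for a difference of moderate size to be seen.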
